A study of Homo sapiens with 12 samples.

Results

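Cytosolic aminoacyl-tRNA synthetases were followed in RCC4 cells as a fixed list of 10 genes: AARS1, CARS1, EPRS1, GARS1, IARS1, MARS1, NARS1, SARS1, TARS1 and YARS1. A gene was measured where the platform annotation gave a probe set that symbol and no other, older names included, and its value was the mean of those probe sets. By this rule 9 of the 10 genes were measured, through 12 probe sets, out of 11963 named genes and 22277 probe sets in the table. In the expression results "the synthetases" means these 9. The list is a part of the cytosolic synthetases and was chosen with earlier results of these data known. All 3 probe sets listing MARS1 also carry the symbol of a microRNA gene, so MARS1 has no expression value here.

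RCC4 is an established human line of clear cell renal carcinoma. The silenced cultures received a MESH1 siRNA of individual sequence (siMESH1), pooled ATF4 siRNAs (siATF4), or the combination (siMESH1+siATF4), and the controls received a non-targeting siRNA (siNT). All cultures were given 40 pmol of siRNA and were collected after 72 h, with 3 Affymetrix arrays per group. In siMESH1+siATF4 the split of the 40 pmol between siRNAs is not given in the sources used here. Labels call the arrays of a group biological replicates without saying more about separate cultures, so p-values measure the spread between these arrays, and their number limits the precision. With a single MESH1 siRNA and a single ATF4 pool, silencing of each target and other effects of its siRNAs cannot be told apart. The values are log2 differences, each probe set's signal less its own mean over the siNT arrays, so they are differences and not levels, and the labelled cell type could not be checked against levels of marker genes.

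Each aminoacyl-tRNA synthetase attaches an amino acid to the tRNAs that read its codons, and so supplies the ribosome with charged tRNA. Part of these enzymes sit in the cytosolic multisynthetase complex, among them EPRS1, IARS1 and MARS1. ATF4 is the transcription factor whose translation rises when eIF2 is phosphorylated in the integrated stress response. With C/EBP partners it binds C/EBP-ATF response elements, and its known targets include genes of amino acid synthesis, amino acid transport and tRNA charging. MESH1, the product of HDDC3, removes a phosphate from NADPH in the cytosol.

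The C/EBP-ATF element has the core TGATGNAA, and the promoter windows of the synthetase genes were searched for these letters on both strands. A window runs from 250 bases before to 50 bases after an annotated start, and a match is a description of letters, not of binding. The windows of IARS1 and TARS1, whose transcripts fell in siATF4, and of AARS1 and CARS1, which lay lower in siATF4 but below the fold minimum, are shown because each holds the same 8 letters at another distance from the start. They are RefSeq sequences on GRCh38.p14, read 5′ to 3′ on the strand of the gene, and capitals mark the match. All 4 capital runs read TTGCATCA, which is the core on the opposite strand. YARS1 was not searched. The IARS1 window shown is chr9:92293648-92293947 (minus strand), that of TARS1 chr5:33440715-33441014 (plus strand), that of AARS1 chr16:70289457-70289756 (minus strand) and that of CARS1 chr11:3057374-3057673 (minus strand).
IARS1: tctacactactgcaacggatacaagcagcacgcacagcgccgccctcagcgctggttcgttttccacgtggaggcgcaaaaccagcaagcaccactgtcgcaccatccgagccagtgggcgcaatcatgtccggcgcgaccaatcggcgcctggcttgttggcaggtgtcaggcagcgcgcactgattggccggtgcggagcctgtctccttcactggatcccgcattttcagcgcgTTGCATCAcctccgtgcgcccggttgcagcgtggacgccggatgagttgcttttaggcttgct
TARS1: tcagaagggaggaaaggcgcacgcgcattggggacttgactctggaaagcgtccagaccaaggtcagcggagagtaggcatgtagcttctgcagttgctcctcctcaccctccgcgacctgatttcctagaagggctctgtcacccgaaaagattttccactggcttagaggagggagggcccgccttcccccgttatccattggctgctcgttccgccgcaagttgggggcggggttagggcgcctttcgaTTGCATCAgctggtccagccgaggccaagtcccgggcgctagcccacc
AARS1: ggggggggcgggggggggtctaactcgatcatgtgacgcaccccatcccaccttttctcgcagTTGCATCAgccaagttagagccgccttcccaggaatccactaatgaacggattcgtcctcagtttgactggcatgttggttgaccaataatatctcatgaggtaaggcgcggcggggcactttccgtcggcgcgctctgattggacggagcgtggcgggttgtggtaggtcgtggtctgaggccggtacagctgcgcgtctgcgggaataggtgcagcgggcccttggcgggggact
CARS1: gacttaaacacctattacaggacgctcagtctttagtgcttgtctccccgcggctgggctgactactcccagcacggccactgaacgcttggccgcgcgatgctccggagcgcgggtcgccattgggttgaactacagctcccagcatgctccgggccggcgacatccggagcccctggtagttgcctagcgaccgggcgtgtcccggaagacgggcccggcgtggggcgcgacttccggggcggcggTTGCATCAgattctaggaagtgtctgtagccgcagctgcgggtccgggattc

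In IARS1 the match lay at -13 to -6 and in TARS1 at 3 to 10, counted from the start site at 1. In CARS1 it spanned the start at -2 to 6, whereas in AARS1 it lay far upstream at -187 to -180. MARS1 held the same letters at -4 to 4. The match of GARS1 read TTTCATCA at -33 to -26, and that of NARS1 read TGATGCAA on the strand of the gene at 15 to 22. EPRS1 and SARS1 had no match in their windows. TARS1, CARS1, GARS1 and SARS1 have 2 windows each, for different annotated starts, and the second windows of TARS1, CARS1 and GARS1 held no match. A gene counted as holding the core where any of its windows did. In all, 7 of the 9 synthetase genes with a window held the core, and 6 of 8 among those with an expression value. The core was found in 1270 of all 35116 windows (3.62%) and in 328 of the 9563 measured genes with a window (3.43%). Of measured genes with a window, the other cytosolic synthetases held it in 0 of 5, the mitochondrial synthetases in 1 of 13, and genes of amino acid synthesis and transport in 6 of 15. The members and lists were chosen with earlier results of these data known, so these shares are a description and no test. LARS1 and VARS1, other cytosolic synthetases that were measured, had no window and were not searched. Among all genes called lower in siATF4 than in siNT the share was 16 of 403 (3.97%), and among those called higher 12 of 235 (5.11%), beside the 3.43% of all measured genes.

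**Figure D1:**
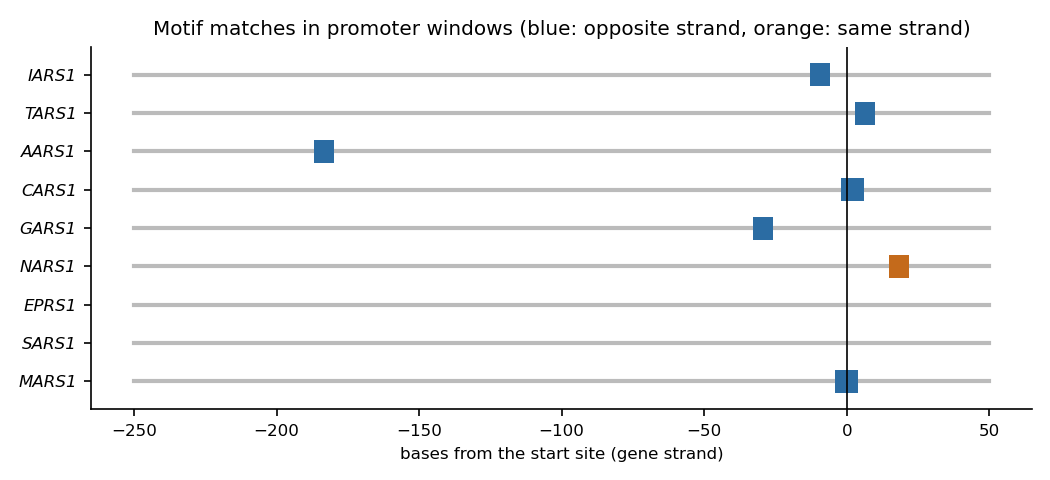
Matches to the C/EBP-ATF core in the promoter windows of 9 synthetase genes, along the strand of the gene in bases from the start site (vertical line); grey bars are the windows, blue boxes matches on the opposite strand and the orange box a match on the same strand. Each gene has 1 bar, and for TARS1, CARS1 and GARS1 it is the window with the match. The matches of IARS1, TARS1, CARS1, MARS1, GARS1 and NARS1 lie between -33 and 22, that of AARS1 lies at -187 to -180, and EPRS1 and SARS1 have none.

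ATF4 transcript was -2.29, -2.33 and -2.30 on the siATF4 arrays and -2.27, -2.46 and -2.23 on the siMESH1+siATF4 arrays, against -0.10, 0.0030 and 0.098 on the siNT arrays, so it was reduced wherever its siRNA was given. HDDC3, which encodes MESH1, had no expression value by the probe set rule, so silencing of MESH1 could not be checked on these arrays. Of 6 measured markers of leukocytes and endothelium, 0 were called in any silenced group relative to siNT (limma; at an unadjusted p of 0.05, 0 passed with siMESH1, 2 with siATF4 and 1 with the combination). Renal carcinoma markers did move, since 4 of 8 measured were called lower in siMESH1, where 5.37% of all genes were. These were CA12 (-1.61), VEGFA (-0.65), KRT18 (-0.54) and LOX (-0.50). In siATF4 0 of the 8 were called, and in siMESH1+siATF4 CA12 was lower (-0.76) and KRT18 higher (0.63). Array medians over all probe sets lay between -0.0086 and 0.031. As a sign of RNA quality, the ACTB control probe set at the 3′ end less that at the 5′ end averaged -0.11 ± 0.15 for siMESH1, -0.29 ± 0.082 for siATF4 and -0.30 ± 0.13 for siMESH1+siATF4, against 0.0 ± 0.063 in siNT (log2, SD, n = 3). The same measure for GAPDH was 0.078, -0.090 and -0.022 in these silenced groups, against 0 in siNT. The part of these differences in the synthetase results was not tested. A list of 11 measured housekeeping genes averaged -0.33 for siMESH1, -0.15 for siATF4 and -0.22 for siMESH1+siATF4, against 0 in siNT. The list was not stable itself, since 3 of the 11 were called lower in siMESH1 (TFRC at -1.17, HPRT1 at -0.66 and PGK1 at -0.53), 2 in siATF4 (PGK1 and YWHAZ, both at -0.61) and 1 in siMESH1+siATF4 (PGK1 at -0.94). Housekeeping centring, the removal of this mean from each array, moved the median of all genes to 0.36, 0.17 and 0.23 against siNT, which were 0.028, 0.020 and 0.013 as deposited. The median of the 11 genes, on which such genes weigh less, averaged -0.22, -0.032 and -0.12 in these groups, against -0.0027 in siNT, and housekeeping median centring, chosen after seeing the data, moved the median of all genes to 0.24, 0.050 and 0.13. Relative to the median of all genes the synthetases' median was -0.27 for siMESH1, -0.33 for siATF4 and -0.39 for siMESH1+siATF4. Centring shifts all genes of an array alike, so these differences stay the same by construction and are no check of the scaling.

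Silencing ATF4 alone was followed by lower transcripts of YARS1, IARS1 and TARS1, the tyrosyl-, isoleucyl- and threonyl-tRNA synthetases, each by 1.59- to 1.63-fold. Calls required a log2 difference of at least 0.5, the fold minimum, beside an adjusted p below 0.05 (limma, Benjamini-Hochberg over all named genes). By this rule 3 of 9 synthetases fell in siATF4 relative to siNT and 0 rose, where 4.03% of all genes were called lower and 2.49% higher. In such bulk RNA, less transcript per cell and fewer cells that carry it cannot be told apart. The median of the 9 was -0.31, and that of all genes was 0.020. With housekeeping centring the median of the 9 was -0.16, and with housekeeping median centring -0.28. YARS1 (-0.56), IARS1 (-0.524) and TARS1 (-0.523) stayed called with housekeeping centring. On adjusted p alone 8 of 9 were lower, where the share over all genes was 13.8%.

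YARS1 measured -0.75, -0.70 and -0.68 on the siATF4 arrays, against -0.030, 0.063 and -0.033 on the siNT arrays. The groups did not overlap, and the gap between them was larger than the spread within either. YARS1 fell 1.63-fold (-0.71 ± 0.049, SE, adjusted p = 3.2e-07). IARS1, a subunit of the multisynthetase complex, measured -0.69, -0.70 and -0.63 in siATF4 and 0.0021, 0.0089 and -0.011 in siNT. It fell 1.59-fold (-0.67 ± 0.048, adjusted p = 4e-07), again with no overlap. TARS1 measured -0.66, -0.71 and -0.64 in siATF4 and -0.0046, -0.0038 and 0.0084 in siNT. Its fall was also 1.59-fold (-0.67 ± 0.053, adjusted p = 8.7e-07), and the intervals of the 3 falls overlapped. YARS1 and IARS1 are each read by 1 probe set of the _s_at type, which can match more than a single transcript, and TARS1 by 1 of the plain _at type.

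A further 5 synthetases passed adjusted p in siATF4 but stayed below the fold minimum. AARS1, which charges alanine tRNA, was at -0.36 (adjusted p = 0.00021), CARS1, which charges cysteine tRNA, at -0.31 (adjusted p = 0.00027), and NARS1, for asparagine, at -0.29 (adjusted p = 0.00042). EPRS1, the fused glutamyl- and prolyl-tRNA synthetase, was at -0.27 (adjusted p = 0.044), and GARS1, for glycine in cytosol and mitochondria, at -0.25 (adjusted p = 0.0056). These differences were smaller with housekeeping centring, from -0.215 for AARS1 to -0.104 for GARS1. With housekeeping median centring they ran from -0.333 to -0.222. The siATF4 arrays of all 5 lay below every siNT array. SARS1, the seryl-tRNA synthetase, measured -0.20, -0.054 and -0.0039 in siATF4 and -0.031, 0.069 and -0.038 in siNT, and these overlapped (-0.085 ± 0.059, adjusted p = 0.33). Together with the 3 that fell, 8 of 9 synthetases had every siATF4 array below every siNT array, which held for 18.6% of all genes.

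**Figure D2:**
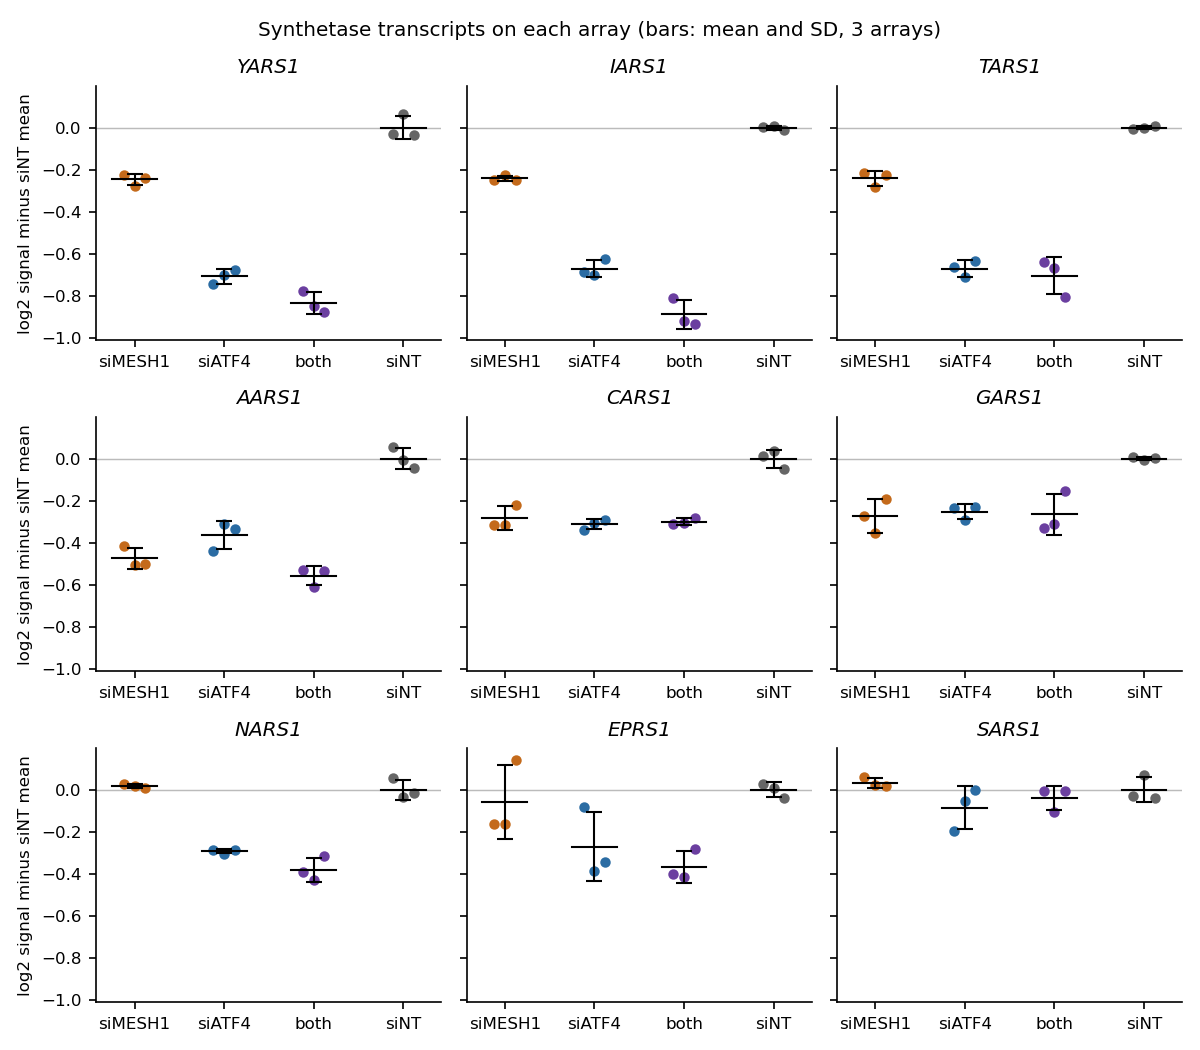
Vertical axis, log2 signal relative to the siNT mean, shown on each of the 12 arrays for the 9 measured synthetases, by group; bars give the mean and SD of 3 arrays, and "both" is siMESH1+siATF4. YARS1, IARS1 and TARS1 lie near -0.24 in siMESH1 and near -0.7 in siATF4, AARS1, CARS1 and GARS1 lie lower in all 3 silenced groups, and SARS1 stays near 0; the siMESH1 means of all but AARS1 lie above siNT with housekeeping centring, those of NARS1, EPRS1 and SARS1 alone with housekeeping median centring.

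Silencing MESH1 alone left every synthetase within the fold minimum of siNT. limma called 0 of 9, where 8.19% of all genes were called in either direction, and the methods' t-test with the same fold minimum also called 0. In limma 6 passed an unadjusted p of 0.05. The same 6 passed adjusted p on the lower side, where the share over all genes was 16.3%, but with housekeeping centring 5 of them, YARS1, IARS1, TARS1, CARS1 and GARS1, lay above siNT at 0.047 to 0.090. The mean removed there includes TFRC, HPRT1 and PGK1, which were called lower in siMESH1, and with housekeeping median centring all 5 lay below siNT, at -0.071 to -0.028. The median of the 9 was -0.24 as deposited, 0.089 with housekeeping centring and -0.030 with housekeeping median centring.

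AARS1 differed most from siNT in siMESH1, at -0.42, -0.51 and -0.50, against 0.055, -0.0083 and -0.046 in siNT. Its difference was -0.47 ± 0.053 (adjusted p = 1.7e-05), just short of the fold minimum, and it stayed below siNT with housekeeping centring at -0.143 and with housekeeping median centring at -0.262. Without siMESH1 replicate 1 it reached -0.503 and was called. CARS1 was at -0.28 (adjusted p = 0.00043) and GARS1 at -0.27 (adjusted p = 0.0027). YARS1 was at -0.25, IARS1 at -0.24 and TARS1 at -0.24 (adjusted p between 0.0016 and 0.003), each well short of its difference in siATF4. For these 6 genes every siMESH1 array lay below every siNT array, which held for 20.8% of all genes.

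NARS1 and SARS1 were close to siNT in siMESH1 as deposited, at 0.348 and 0.364 with housekeeping centring, and at 0.23 and 0.246 with housekeeping median centring. NARS1 measured 0.029, 0.016 and 0.0077 in siMESH1, against 0.055, -0.037 and -0.018 in siNT (0.018, 95% interval -0.085 to 0.12), and SARS1 was at 0.034 (95% interval -0.094 to 0.16). EPRS1 measured -0.16, -0.16 and 0.14 in siMESH1, so its arrays lay on either side of the siNT mean. Its 3 probe sets disagreed there: they read 0.033, 0.11 and -0.32, and the last alone passed adjusted p (0.00083). In siATF4 the same probe sets read -0.12, -0.28 and -0.41, and in siMESH1+siATF4 -0.24, -0.37 and -0.49, but again the last alone passed adjusted p (0.58, 0.2 and 0.00014 in siATF4, and 0.21, 0.076 and 2.2e-05 in siMESH1+siATF4). The 2 probe sets of CARS1 ran the same way in every silenced group as deposited, at -0.30 and -0.26 in siMESH1 and -0.40 and -0.22 in siATF4.

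Set directly against siATF4, siMESH1 held 4 synthetases at a higher value on adjusted p alone (15.9% of all genes), namely YARS1 (0.46), TARS1 (0.43), IARS1 (0.43) and NARS1 (0.31). None of the 9 reached the fold minimum, where 8.66% of all genes were called in either direction, and 5 passed an unadjusted p of 0.05. With housekeeping centring YARS1, TARS1 and IARS1 were called at 0.613 to 0.645. AARS1 was the furthest on the other side, at -0.11 (95% interval -0.23 to 0.0040, adjusted p = 0.14), and its direction turned with housekeeping centring (0.071). CARS1 differed by 0.028 (95% interval -0.074 to 0.13) and GARS1 by -0.021 (95% interval -0.15 to 0.11).

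With both genes silenced, 4 of 9 synthetases fell relative to siNT and 0 rose, where 5.25% of all genes were called lower. On adjusted p alone 8 of 9 were lower (16.0% of all genes), and 8 had every siMESH1+siATF4 array below every siNT array (20.2% of all genes). The median was -0.38, and that of all genes 0.013. This comparison, siMESH1 vs siNT and siATF4 vs siNT share the siNT arrays, whose values are given above.

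IARS1 had the lowest values of the list, at -0.81, -0.92 and -0.94 in siMESH1+siATF4, a fall of 1.85-fold (-0.89 ± 0.048, adjusted p = 1.6e-08). YARS1 measured -0.78, -0.85 and -0.88 in siMESH1+siATF4 and fell 1.78-fold (-0.83 ± 0.049, adjusted p = 3.5e-08). TARS1 measured -0.64, -0.67 and -0.81 and fell 1.63-fold (-0.70 ± 0.053, adjusted p = 3.3e-07). AARS1, at -0.53, -0.61 and -0.53, was the fourth to pass the fold minimum, with a fall of 1.47-fold (-0.56 ± 0.053, adjusted p = 3.3e-06). With housekeeping centring TARS1 (-0.483) and AARS1 (-0.335) no longer reached the fold minimum, whereas IARS1 and YARS1 remained called, and with housekeeping median centring AARS1 alone was lost (-0.439). NARS1 (-0.38), EPRS1 (-0.37), CARS1 (-0.30) and GARS1 (-0.26) passed adjusted p alone, and SARS1 was at -0.040 (95% interval -0.17 to 0.088).

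**Figure D3:**
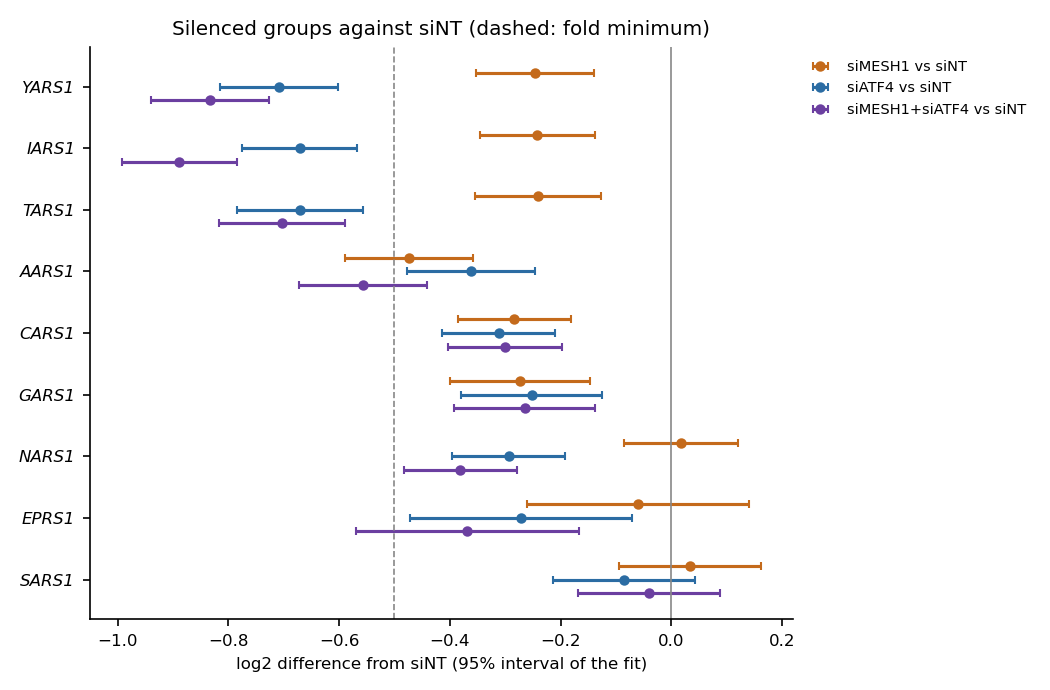
Log2 difference from siNT (horizontal axis) of the 9 measured synthetases in siMESH1, siATF4 and siMESH1+siATF4; points are differences, bars the 95% interval of the fit, and the dashed line the fold minimum. Only YARS1, IARS1, TARS1 and, in siMESH1+siATF4, AARS1 lie past the line; with housekeeping centring all siMESH1 values except that of AARS1 lie above 0, as does SARS1 in all 3 groups.

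IARS1 and YARS1 were lower still where siATF4 was added to siMESH1. Against siMESH1 alone, 2 of 9 synthetases fell in siMESH1+siATF4 (2.68% of all genes were called lower), IARS1 by 1.57-fold (-0.65 ± 0.048, adjusted p = 7.7e-07) and YARS1 by a log2 difference of -0.59 ± 0.049 (adjusted p = 2.1e-06). TARS1 (-0.46), NARS1 (-0.40) and EPRS1 (-0.31) were below siMESH1 on adjusted p alone, which made 5 of 9 where the share over all genes was 12.4%. TARS1 and NARS1 were also called with housekeeping centring, at -0.572 and -0.508, and with housekeeping median centring TARS1 was (-0.558) and NARS1 was not (-0.493). In 7 of 9 genes every siMESH1+siATF4 array lay below every siMESH1 array, as in 20.7% of all genes. GARS1 (0.0086, 95% interval -0.12 to 0.14) and CARS1 (-0.017, 95% interval -0.12 to 0.086) did not separate.

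Adding siMESH1 to siATF4 was followed by smaller differences. Against siATF4 alone, limma called 0 of 9 synthetases (1.63% of all genes in either direction), 3 passed an unadjusted p of 0.05, and the methods' t-test with the same fold minimum called 0. IARS1 (-0.22, adjusted p = 0.011) and AARS1 (-0.19, adjusted p = 0.033) were lower on adjusted p alone, 2 of 9 where the share over all genes was 5.57%. YARS1 was at -0.13 (95% interval -0.23 to -0.020, adjusted p = 0.13) and TARS1 at -0.033 (95% interval -0.15 to 0.081).

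The interaction asks whether siMESH1 shifted a transcript by the same amount with and without siATF4, measured as siMESH1+siATF4 less siATF4, from which the difference between siMESH1 and siNT is subtracted. None of the 9 synthetases reached the fold minimum (4.31% of all genes were called in either direction), 4 passed an unadjusted p of 0.05, and 2 passed adjusted p above 0, where the share over all genes was 7.84%. These were CARS1 (0.29 ± 0.067, adjusted p = 0.013) and AARS1 (0.28 ± 0.075, adjusted p = 0.03). For CARS1 the single differences sum to -0.60, against -0.30 measured in siMESH1+siATF4. For AARS1 they sum to -0.84, against -0.56 measured. GARS1 stood at 0.26 (adjusted p = 0.062) and TARS1 at 0.21 (adjusted p = 0.097), while IARS1 was at 0.025 (95% interval -0.12 to 0.17), so that its single differences summed to -0.91 beside -0.89 measured. With housekeeping centring the values of CARS1 and AARS1 were 0.038 and 0.023, and with housekeeping median centring 0.17 and 0.155.

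Arranged by their values after these were seen, the synthetases formed a few patterns. YARS1, IARS1 and TARS1 were lowest in the groups that received siATF4, with siMESH1 between them and siNT as deposited, just above siNT with housekeeping centring and just below it with housekeeping median centring. AARS1, CARS1 and GARS1 lay below siNT in siMESH1 and in siATF4, in siMESH1 for AARS1 alone with housekeeping centring, and the differences of -0.11 to 0.028 between these groups did not pass adjusted p. As deposited, NARS1 was near siNT in siMESH1 and lower in both groups that received siATF4, as was EPRS1 with its disagreeing probe sets. SARS1 lay between -0.085 and 0.034 in the silenced groups as deposited. The C/EBP-ATF core was present in windows of IARS1, TARS1, AARS1, CARS1, GARS1 and NARS1. EPRS1 and SARS1 had no match, and YARS1 had no window and was not searched. Among all genes called lower in siATF4 the core's share was 3.97%, beside 3.43% of all measured genes. Over the 12 arrays, the correlation of each gene with the mean of the other members ran between 0.979 for YARS1 and 0.429 for SARS1, as a description of arrays that share their groups.

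The 7 measured genes of the other 10 cytosolic synthetase genes gave 0 calls in siATF4 relative to siNT in either direction. In limma 3 of them passed an unadjusted p of 0.05, and their median was 0.0030. Of all genes 4.03% were called lower in siATF4 and 2.49% higher, so 0 calls in so short a list is close to these shares. LARS1, for leucine, was at -0.34 (adjusted p = 0.0018) and KARS1, for lysine, at -0.21 (adjusted p = 0.006), both below the fold minimum. WARS1, the interferon-inducible tryptophanyl-tRNA synthetase, was chosen after its values were seen. It measured 0.22, 0.17 and 0.11 in siMESH1+siATF4, against -0.49, -0.52 and -0.48 in siMESH1, a rise of 1.59-fold (0.67 ± 0.065, adjusted p = 7.8e-06). Its probe sets were not all called.

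The counts of the next lists in siATF4 stand beside 4.03% of all genes called lower and 2.49% called higher. Counts of 0, or 1 of 13, are close to these shares in lists this short. Of the list of multisynthetase scaffold proteins and tRNA export, 2 of 4 genes were measured, and 1 of them was called in siATF4. XPOT, the exportin that carries tRNA out of the nucleus, fell in siATF4 (-0.56, adjusted p = 6.1e-06) and in siMESH1+siATF4 (-0.79, adjusted p = 1.6e-07), the first not with housekeeping centring (-0.415). AIMP1, a scaffold protein of the complex, was at -0.016 in siATF4 (adjusted p = 0.84), at -0.28 in siMESH1 (adjusted p = 0.00046, but 0.048 with housekeeping centring) and at -0.34 in siMESH1+siATF4 (adjusted p = 8.9e-05), all below the fold minimum. Without _s_at and _x_at probe sets AIMP1 was called in siMESH1 (-0.621) and siMESH1+siATF4 (-0.703). Of 13 measured mitochondrial synthetase genes 1 fell in siATF4, IARS2 (-0.59, adjusted p = 7.8e-06, but -0.446 and not called with housekeeping centring), which charges isoleucine tRNA in mitochondria. HARS2, the mitochondrial histidyl-tRNA synthetase, was at 0.42 in siATF4, below the fold minimum (0.564 and called with housekeeping centring), and fell in siMESH1 (-0.55, adjusted p = 4.7e-06, but -0.219 and not called with housekeeping centring). The 6 elongation factors and the 13 genes of initiation and the eIF2 pathway gave 0 calls in siATF4. In limma 3 and 10 of them passed an unadjusted p of 0.05. On adjusted p alone 3 and 9 passed in either direction, as did 3421 of all 11963 genes. Of the 13 genes 6 lay below 0. PPP1R15A, at 0.468, was called with housekeeping centring (0.616) and without siATF4 replicate 1 (0.506). Of 19 measured genes of amino acid synthesis and transport 5 fell in siATF4 and 0 rose, led by ASNS, asparagine synthetase (-1.19, adjusted p = 6.6e-08), and MTHFD2, a mitochondrial folate enzyme (-0.88, adjusted p = 6.4e-08). Among 14 measured stress response regulators 1 fell and 2 rose in siATF4, NUPR1 (-1.02) against STC2 (1.27) and GDF15 (0.51). GDF15 was not called with array median centring (0.493) or without siATF4 replicate 2 (0.481), siATF4 replicate 3 (0.496) or siNT replicate 1 (0.46). The probe sets of GDF15 were not all called either.

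**Figure D4:**
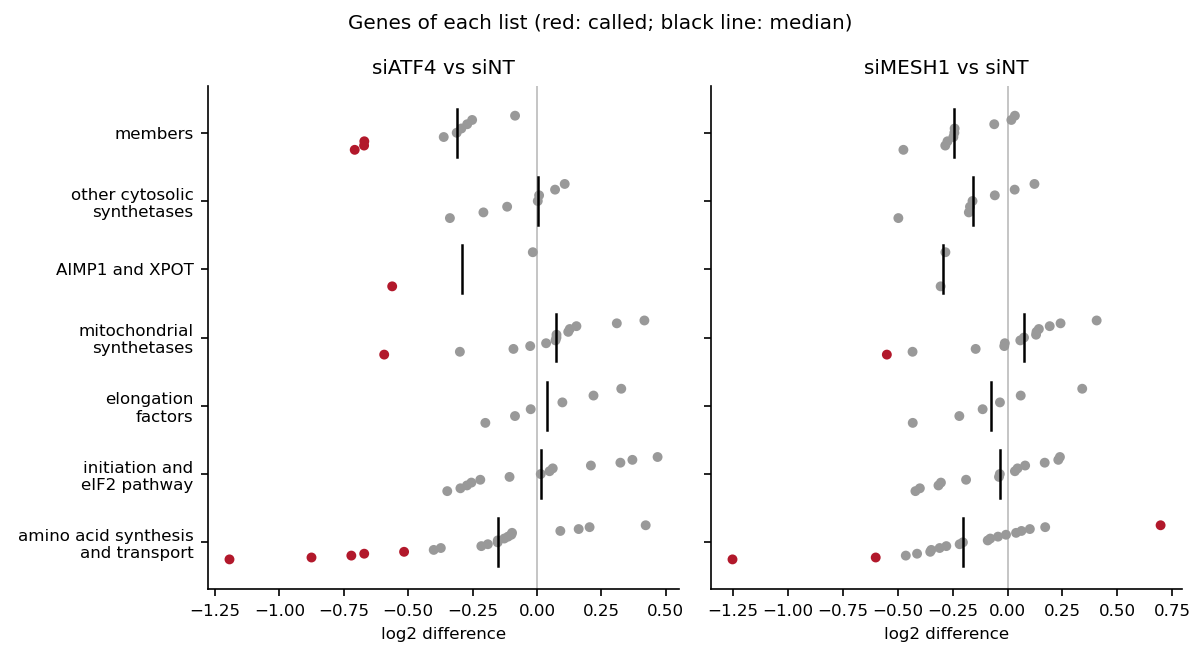
Log2 difference (horizontal axis) of each measured gene in 7 gene lists, for siATF4 vs siNT (left) and siMESH1 vs siNT (right); red points are called genes, grey points are not, and black lines are medians. In siATF4 the median of the measured members is -0.31 beside 0.0030 for the other cytosolic synthetases and 0.076 for the mitochondrial ones. The members and lists were chosen with earlier results of these data known, so the medians are a description and no test. In siMESH1 the members' median of -0.24 turns to 0.089 with housekeeping centring and is -0.030 with housekeeping median centring.

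The genes whose values were most like the mean of the 9 synthetases over the 12 arrays were VCAM1 (Pearson r = 0.993), NHLRC2 (0.991), UAP1 (0.991), NCL (0.991) and NOLC1 (0.989), taken as the 5 highest of all named genes outside the list. The arrays share their 4 groups, so these values mostly describe the relative spacing of the group means. NCL, which encodes the nucleolar protein nucleolin, averaged -0.22 with siMESH1, -0.39 with siATF4 and -0.48 with siMESH1+siATF4, against 0 in siNT. VCAM1, an adhesion molecule, had the same order at -0.45, -0.99 and -1.24 in these groups, against 0 in siNT.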

How the data were processed

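Total RNA of RCC4 cells was hybridised to Affymetrix human arrays, 12 in all. For the deposited table the authors computed log2 signals with RMA in Affymetrix Expression Console, versions not given in the sources used here, and subtracted the siNT mean. That mean lay within 0.00012 of 0 for every probe set, so no level exists to filter on. All columns matched a sample, leaving 0 without one, and no 2 arrays were identical.

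Probe sets with exactly 1 symbol (19064, of which 19052 matched by Entrez identifier) were averaged per gene; 1043 with several symbols, 2164 with none and all 62 control probe sets, part of which have no symbol, stayed out. All 12 arrays entered a single fit (limma 3.58.1, R 4.3.3) with a mean per group, 8 residual and 4.32 prior degrees of freedom. Scripts were tested on simulated data. Python 3.11.15, pandas 2.3.3, numpy 2.4.6 and matplotlib 3.10.9 were used. Replicate numbers were not used as pairs: same-numbered arrays of different groups correlated at a median of 0.015 after removal of group means (18 pairs, -0.191 to 0.095).

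All 10 members are described; other lists give counts and at most 4 genes with the smallest adjusted p in siATF4 vs siNT. Likeness gives the 5 highest r, and at most 4 promoters are printed. The members and lists were chosen with earlier results of these data known. Alternatives were array median centring, housekeeping centring, housekeeping median centring (added after seeing the data), dropping _s_at and _x_at probe sets, requiring every probe set, fitting 2 groups, the replicate block, the methods' t-test, adjusted p alone, and leaving out each array.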

Additional observations from a re-analysis of the deposited data

Results flagged for a closer look

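CARS1 and AARS1 differed in their siMESH1 response with and without siATF4, by the interaction term of the fit. The interaction was 0.295 for CARS1 (adjusted p = 0.013) and 0.279 for AARS1 (adjusted p = 0.03), both below the fold minimum, and with housekeeping centring they were 0.038 and 0.023 (0.17 and 0.155 with housekeeping median centring).

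WARS1, a cytosolic synthetase outside the list of 10, had an interaction of 0.595 (adjusted p = 0.00098) and was called. Its siMESH1 minus siNT difference was -0.497, below the fold minimum, but it was called with array median centring (-0.522), without _s_at and _x_at probe sets (-0.588) and without siMESH1 replicate 3 (-0.507) or siNT replicate 3 (-0.548). Its siMESH1+siATF4 minus siATF4 difference was 0.098. With housekeeping centring the interaction was 0.338 and not called, nor was it with housekeeping median centring (0.47) or where every probe set had to be called.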

How the results depend on the processing

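On adjusted p alone, without the fold minimum, the members passing were 6 in siMESH1 vs siNT, 8 in siATF4 vs siNT, 8 in siMESH1+siATF4 vs siNT, 5 in siMESH1+siATF4 vs siMESH1, 2 in siMESH1+siATF4 vs siATF4, 4 in siMESH1 vs siATF4 and 2 in the interaction. Without _s_at and _x_at probe sets, YARS1, IARS1, EPRS1 and GARS1 had no probe set left, which removed the calls of YARS1 and IARS1. Among the remaining members the calls were 1 in siATF4 vs siNT, 2 in siMESH1+siATF4 vs siNT and 0 in siMESH1+siATF4 vs siMESH1. Over all genes 561, 808 and 547 were called there (780, 1154 and 730 with all probe sets). With housekeeping centring the members called were 2 in siMESH1+siATF4 vs siNT, 4 in siMESH1+siATF4 vs siMESH1 and 3 in siMESH1 vs siATF4, the last also 3 with housekeeping median centring. The replicate block kept the counts of members at 0, 3, 4, 2, 0, 0 and 0 in the order of comparisons above, and left 978, 781, 1154, 730, 195, 1036 and 517 of all genes called. Leaving out an array gave 0 to 1 member called in siMESH1 vs siNT (AARS1, -0.503 without siMESH1 replicate 1) and 3, 4, 2, 0, 0 and 0 in the other comparisons, the same as with all arrays.

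Directions turned with housekeeping centring in siMESH1 vs siNT for CARS1 (0.047), EPRS1 (0.27), GARS1 (0.057), IARS1 (0.089), TARS1 (0.09), YARS1 (0.084), XPOT (0.026), AIMP1 (0.048) and ATF4 (0.302). They also turned for SARS1 (0.062) and AIMP1 (0.131) in siATF4 vs siNT, for SARS1 in siMESH1+siATF4 vs siNT (0.181), for GARS1 (-0.101) in siMESH1+siATF4 vs siMESH1, and for GARS1 (0.061) and TARS1 (0.041) in siMESH1+siATF4 vs siATF4. In siMESH1 vs siATF4 AARS1 (0.071) and GARS1 (0.162) turned, and in the interaction IARS1 (-0.232), SARS1 (-0.245), TARS1 (-0.049) and YARS1 (-0.137) did. Housekeeping median centring, chosen after seeing the data, turned fewer: EPRS1 (0.152) and ATF4 (0.184) in siMESH1 vs siNT, AIMP1 (0.013) in siATF4 vs siNT, SARS1 (0.077) in siMESH1+siATF4 vs siNT, GARS1 (-0.086) in siMESH1+siATF4 vs siMESH1, GARS1 (0.075), NARS1 (0.001) and TARS1 (0.055) in siMESH1+siATF4 vs siATF4, AARS1 (0.071) and GARS1 (0.162) in siMESH1 vs siATF4, and IARS1 (-0.1), SARS1 (-0.113) and YARS1 (-0.004) in the interaction. Array median centring turned NARS1 in siMESH1 vs siNT (-0.008). Without _s_at and _x_at probe sets CARS1 turned in siMESH1+siATF4 vs siMESH1 (0.057) and siMESH1 vs siATF4 (-0.042). None of these values was called as deposited.

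Leaving out an array turned values near 0: NARS1 (-0.001 to 0.045) and ATF4 (-0.079 to 0.021) in siMESH1 vs siNT; AIMP1 (-0.026 to 0.001) in siATF4 vs siNT; CARS1 (-0.033 to 0.016) and GARS1 (-0.047 to 0.048) in siMESH1+siATF4 vs siMESH1; CARS1 (-0.002 to 0.022), GARS1 (-0.069 to 0.021), SARS1 (-0.011 to 0.086) and TARS1 (-0.066 to 0.018) in siMESH1+siATF4 vs siATF4; CARS1 (-0.004 to 0.045) and GARS1 (-0.061 to 0.018) in siMESH1 vs siATF4; and EPRS1 (-0.094 to 0.065), IARS1 (-0.015 to 0.049) and SARS1 (-0.045 to 0.052) in the interaction. Over all genes, housekeeping centring called 2817 genes in siMESH1 vs siNT (980 as deposited), 1877 in siMESH1+siATF4 vs siNT (1154) and 1457 in the interaction (516), and the methods' t-test after Benjamini-Hochberg adjustment called 122 in siMESH1+siATF4 vs siATF4 (195). On adjusted p alone 4019, 3421, 4254, 3348, 1403, 4004 and 1424 genes passed, in the order of comparisons above. With housekeeping centring the calls split into 291 lower and 2526 higher in siMESH1 vs siNT (643 and 337 as deposited), 324 and 681 in siATF4 vs siNT (482 and 298), 372 and 1505 in siMESH1+siATF4 vs siNT (628 and 526), 549 and 262 in siMESH1+siATF4 vs siMESH1 (321 and 409), 113 and 91 in siMESH1+siATF4 vs siATF4 (153 and 42), 302 and 1026 in siMESH1 vs siATF4 (568 and 468), and 1261 and 196 in the interaction (102 and 414). With housekeeping median centring these splits were 375 and 1216, 440 and 352, 471 and 895, 514 and 280, 106 and 108, 303 and 1025, and 324 and 277. The cause was not tested. With 3 arrays per group and no levels, low signal could not be told from small change.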
